A study of Homo sapiens with 12 samples.

Results

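Chromosome 7 genes had lower RNA levels in K562 cells lacking HRG1 than in wild-type K562 cells, along both arms of the chromosome and with or without butyrate. The account below follows 53 named chromosome 7 genes, running from SUN1 near the short-arm end to NCAPG2 near the long-arm end. They were taken by symbol from the deposited count table, and all 53 were found and were among the 15805 genes tested of 28278 listed. The list was drawn up because the median of the chromosome was lower in knockout (KO) than in wild-type (WT) cells, so differences between KO and WT are given here as a description and not as a test. The table held 730 tested genes on chromosome 7, of which 677 were not on the list.

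K562 is a human erythroleukaemia line that sodium butyrate, a histone deacetylase inhibitor, can push towards red-cell differentiation. The KO cells lack HRG1, a heme transporter encoded by SLC48A1. There were 4 groups of 3 libraries: WT control, HRG1-KO control, WT sodium butyrate and HRG1-KO sodium butyrate. The control cells, called untreated below, received no butyrate, and treated cells received 0.75 mM 24 h after plating and again 48 h later, with collection 6 h after the second dose. The series places the samples at day 8 of differentiation. The number of KO clones, the editing method and the origin of the replicates (separate cultures or not) are not given in the sources used here, so p-values measure the spread between these libraries, which may be technical. The knockout and any other difference between the WT and the KO cells cannot be told apart in this design.

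The amount of RNA from a gene often follows the number of copies of the chromosome that carries it. K562 is an aneuploid line with an abnormal karyotype, in which whole chromosomes or arms are gained or lost relative to normal cells. When the RNA of a chromosome changes less than its copy number would give, the difference is called buffering here. Subunits of multiprotein complexes have partners encoded elsewhere, so the RNA of members and partners is set side by side below. Protein was not measured. DNA copy number was not measured in these samples, so how far any change was buffered could not be computed.

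Library totals ranged from 19963594 to 30348538 counts. SLC48A1 had 1357 to 1945 counts in the 6 WT libraries and 55 to 313 in the 6 KO libraries. All 8 K562 marker genes checked (GATA1, TAL1, KLF1, HBG1, HBE1, TFRC, BCR and ABL1) had more than 3 counts in at least one library. Their summed level was 5140 to 10700 CPM (counts scaled to library size) in untreated WT, 2340 to 3550 in untreated KO, 18500 to 31200 in treated WT and 2440 to 3590 in treated KO. The genes did not move alike. From untreated WT to untreated KO, unscaled counts went from 48985 to 152315 down to 220 to 491 for HBE1. HBG1 and GATA1 were also lower without overlap. TFRC was higher, at 9009 to 15404 in WT and 21954 to 42473 in KO. Ranges of TAL1, KLF1, BCR and ABL1 overlapped. Lists of 3 markers each for T cells, B cells and epithelium summed to at most 73.1 CPM in any library, with MS4A1 and KRT5 at 0 counts throughout. The 3 fibroblast markers summed to 1.75 to 5.12 CPM in untreated WT, 2.01 to 4.94 in untreated KO, 36.8 to 116 in treated WT and 70.3 to 170 in treated KO. The part of these marker levels in the chromosome 7 differences was not tested. In bulk RNA, fewer cells of a kind and less RNA per cell cannot be told apart.

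The promoter windows of 4 members are shown because these members lie near each other on the chromosome. Whether the KO-minus-WT difference differs between such neighbours was not tested. Each covers 250 bases before to 50 bases after the annotated start, read 5′ to 3′ on the gene's strand from the RefSeq GRCh38.p14 table, which is the build hg38 named in the submitters' processing notes. HNRNPA2B1 and CBX3 are transcribed away from each other from starts 697 bases apart, at chr7:26200697-26200996 (minus strand) and chr7:26201193-26201492 (plus strand). ARPC1A at chr7:99325648-99325947 and BUD31 at chr7:99408719-99409018 lie on the plus strand with starts 83071 bases apart, on either side of ARPC1B. Capitals mark matches to the element of the transcription factor NRF1, itself a member of the list, searched as GCGCA, any base and GCGC on both strands.
HNRNPA2B1: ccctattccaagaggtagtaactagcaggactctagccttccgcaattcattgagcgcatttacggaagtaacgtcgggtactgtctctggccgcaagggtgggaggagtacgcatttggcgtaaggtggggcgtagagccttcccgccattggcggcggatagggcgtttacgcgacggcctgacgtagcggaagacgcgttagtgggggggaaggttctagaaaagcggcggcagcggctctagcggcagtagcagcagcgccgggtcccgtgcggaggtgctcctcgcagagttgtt
CBX3: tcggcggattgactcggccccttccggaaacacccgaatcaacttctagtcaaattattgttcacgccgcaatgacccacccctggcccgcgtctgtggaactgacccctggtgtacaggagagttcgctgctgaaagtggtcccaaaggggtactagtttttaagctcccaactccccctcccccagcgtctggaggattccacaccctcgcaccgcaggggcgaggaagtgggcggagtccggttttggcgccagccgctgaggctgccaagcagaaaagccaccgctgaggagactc
ARPC1A: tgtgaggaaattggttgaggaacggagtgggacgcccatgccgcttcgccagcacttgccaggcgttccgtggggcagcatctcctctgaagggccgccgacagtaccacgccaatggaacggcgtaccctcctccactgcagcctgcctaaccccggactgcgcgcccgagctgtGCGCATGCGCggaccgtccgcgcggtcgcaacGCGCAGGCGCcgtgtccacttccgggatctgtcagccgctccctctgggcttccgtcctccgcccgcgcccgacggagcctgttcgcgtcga
BUD31: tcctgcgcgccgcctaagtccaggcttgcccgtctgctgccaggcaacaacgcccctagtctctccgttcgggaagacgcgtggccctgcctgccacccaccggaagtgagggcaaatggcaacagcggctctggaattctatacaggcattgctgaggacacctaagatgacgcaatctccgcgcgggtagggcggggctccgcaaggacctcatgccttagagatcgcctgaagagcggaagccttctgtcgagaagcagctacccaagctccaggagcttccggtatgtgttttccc
Of these 4 windows, that of ARPC1A held 2 matches and the others none. Among the 40 members with a window in the table, 7 (17.5%) held a match in at least one window: ARPC1A, EIF4H, LUC7L2, MAD1L1, SRPK2, SUMF2 and XRCC2. The share among tested genes was 12.2%, and 5.78% of all windows held one. The TATA box, searched as TATAAA on both strands, was in windows of 4 members (10.0%), AKAP9, ELMO1, IKZF1 and SRPK2, against 9.09% of tested genes and 11.5% of all windows. The matches are letters in a window and were not measured as binding.

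Across the 53 members, the median KO-minus-WT difference was -0.73 on the log2 scale without butyrate, with quartiles of -1.08 and -0.44, which is 60.4% of the WT level. With butyrate it was -0.80, with quartiles of -0.97 and -0.55, or 57.4% of WT. Over all 15805 tested genes the corresponding medians were 0.02 and -0.00. Values below 0 were found for 49 members without butyrate and 50 with it. Genes were called by edgeR's quasi-likelihood test at a Benjamini-Hochberg adjusted p under 0.05 over all tested genes. On this rule 25 members were called lower and 0 higher without butyrate, against 10.9% of all tested genes called lower and 11.7% called higher. With butyrate 26 were called lower and 1, SUMF2, higher, against 8.89% and 10.1%. Since the list was chosen on this difference, nothing is read from these shares. Replicate numbers were taken as pairs of libraries. A fit with the replicate number as a block called 37 members lower without butyrate and 39 with it, against 16.1% and 13.6% of all tested genes. In the fit without the block, leaving out replicate 2 of untreated WT lowered the count of 25 to 15. Leaving out replicate 2 or replicate 3 of treated KO lowered the count of 26 to 16 or 14. Both comparisons called 23 members lower, STK17A and ZYX were called without butyrate alone, and GTF2I, PURB and SRPK2 with butyrate alone.

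**Figure D1:**
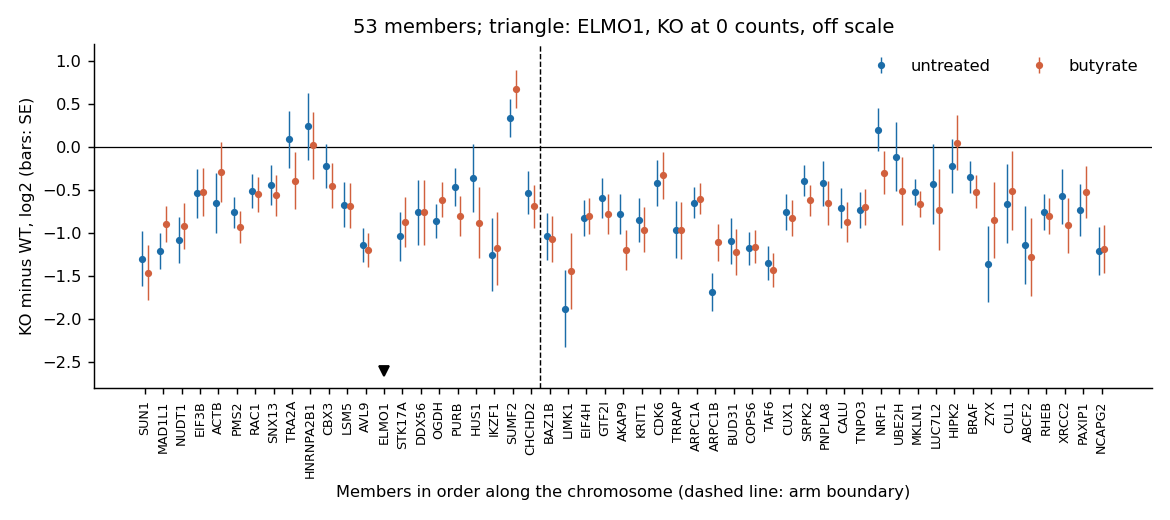
KO-minus-WT log2 difference of each of the 53 members in chromosomal order, without butyrate (blue) and with it (red), with standard errors (SE) from the fit to all 12 libraries. The triangle marks ELMO1, which was off scale with 0 counts in KO. Most points lie between 0 and -1.5, with SUMF2 the highest in both comparisons.

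The libraries themselves showed the shift. Chromosome 7 took 4.19% to 4.42% of counts in the 6 WT libraries and 2.63% to 2.87% in the 6 KO libraries. The members took 0.873% to 1.11% in WT and 0.598% to 0.797% in KO. Relative to the WT mean of the same treatment, the members' median in replicates 1, 2 and 3 was 0.08, 0.00 and -0.05 in untreated WT and -0.64, -0.70 and -0.86 in untreated KO. It was 0.29, -0.12 and -0.15 in treated WT and -0.58, -0.74 and -0.94 in treated KO. Replicate 1 of treated WT stood apart from its group, and no KO library reached a WT library. Within pairs of the same replicate number, the members' median was -0.74, -0.67 and -0.78 without butyrate and -0.75, -0.58 and -0.79 with it. Levels of the WT and KO libraries did not overlap, with KO lower, for 38 members without butyrate and 33 with it, against 20.2% and 16% of all tested genes. KO was higher without overlap for 1 member in each, NRF1 without butyrate and SUMF2 with it, against 22.2% and 17.9%.

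The shift was not limited to an arm. With the arm boundary set at 60 Mb, the median of the 235 tested genes on the short arm was -0.59 without butyrate and -0.69 with it. For the 495 genes on the long arm it was -0.89 and -0.94. The long arm lay below the short arm in all 3 replicate pairs of both treatments, and the order was the same for protein-coding genes alone, at -0.59 against -0.86 and -0.66 against -0.92. Of the members, the 22 on the short arm had medians of -0.66 and -0.72 and the 31 on the long arm -0.73 and -0.80, a narrower gap than that of the arms as a whole. For the 730 genes together the median was -0.78 (58.2% of WT) and -0.86 (55.1%), and for the 677 genes off the list -0.80 and -0.87.

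Nor was it even along the chromosome, though no comparable spread along other chromosomes is given here. The tested genes were cut in order into 37 consecutive runs, 36 of 20 genes and a last one of 10. The run median was below 0 in 36 of 37 runs without butyrate and in 37 of 37 with it. Run medians ranged from -1.75 to 0.06 without butyrate and from -1.58 to -0.21 with it. The lowest run started at 100.5 Mb on the long arm and held no member, and every one of its 20 genes was below 0 in both comparisons. The highest started at 50.59 Mb and spanned the centromere, at 0.06 and -0.21. It held SUMF2 and CHCHD2, which lie close together on the short arm. A run beginning at 129.0 Mb, with NRF1 and UBE2H among its 3 members, had medians of -0.12 and -0.34, and the 10 genes at the end of the long arm -0.01 and -0.22. In bins of 10 Mb the median without butyrate ran from -1.90 between 80 and 90 Mb, a bin of 11 genes, to -0.34 between 50 and 60 Mb. All 16 bins were below 0 in both comparisons.

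**Figure D2:**
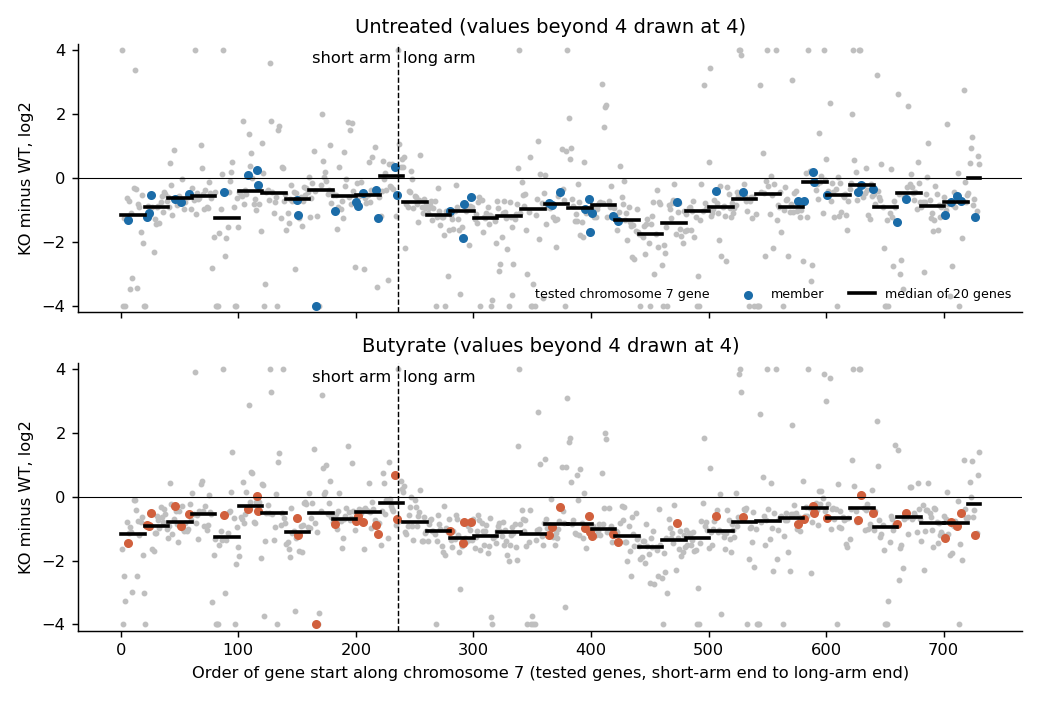
KO-minus-WT log2 difference of the 730 tested chromosome 7 genes in order of their starts, without butyrate (top) and with it (bottom). Grey points are genes, coloured points the 53 members, black bars the medians of runs of 20 genes (10 in the last), and the dashed line the arm boundary. Bars lie below 0 on both arms except 1 next to the boundary without butyrate at 0.06.

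Chromosome 7 had the lowest median of chromosomes 1 to 22 in both comparisons. Chromosome 18 came next at -0.52 and -0.61, and chromosomes 13 and 14 were at the other end, at 0.94 and 0.83 and at 0.63 and 0.57. Other chromosomes therefore moved too, in both directions. Outside chromosome 7 the median of tested genes was 0.05 without butyrate and 0.03 with it.

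**Figure D3:**
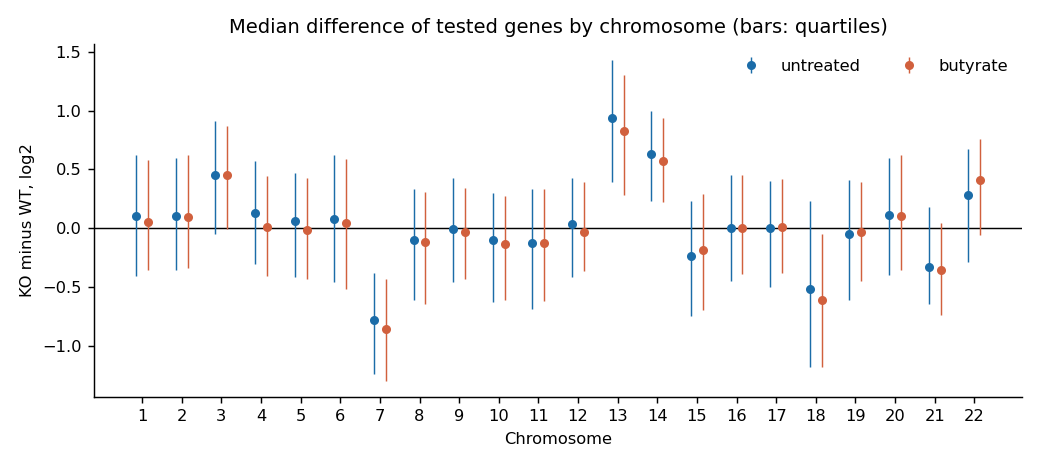
Median KO-minus-WT log2 difference of tested genes on chromosomes 1 to 22 without butyrate (blue) and with it (red); bars span the quartiles. Chromosome 7 lies lowest, at -0.78 and -0.86, and chromosome 13 highest, at 0.94 and 0.83.

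As a scale for these sizes, keeping 3 of 4 copies of a gene is 75% by arithmetic (-0.42 on the log2 scale), 2 of 3 is 66.7% (-0.58) and 1 of 2 is 50% (-1.0). Without butyrate, 27 members were at 50% to 75% of WT, 15 at 25% to 50% and 1 under 25%. A further 6 were at 75% to 100% and 4 at or above the WT level. With butyrate the counts from the lowest band upwards were 1, 12, 33, 4 and 3. The members' values were thus spread over several bands. Scatter of this kind was also found elsewhere. Without butyrate the quartiles were -1.24 and -0.38 for the tested chromosome 7 genes, against -0.5 and 0.57 outside the chromosome. With butyrate they were -1.3 and -0.43, against -0.45 and 0.54. Whether the members depart from a single ratio was not tested. Abundant genes were less spread than scarce ones. In the least expressed quartile of the chromosome's tested genes, the quartiles of the difference without butyrate were -2.76 and 0.41, and in the most expressed quartile, which held 37 of the members, they were -0.97 and -0.48. The medians of these expression quartiles were -1.06 and -0.73.

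Cytoskeletal genes had a median of -1.36 without butyrate, the lowest of the 10 role groups, and of -0.85 with it, near that of all members. All 7 were below 0 in both comparisons. Counts of called genes in these groups, here 5 and 4 lower, stand beside the 10.9% and 8.89% of all tested genes called lower, and nothing is read from them because the list was chosen on this difference. With the replicate block, 7 and 6 were called, with ACTB and RAC1 added without butyrate and RAC1 and ZYX with it. ELMO1, a partner of DOCK proteins in activating RAC1, had 81, 266 and 199 counts in untreated WT, 70, 259 and 261 in treated WT and 0 in all 6 KO libraries. Against a floor of 3 counts per library, ELMO1 was at least 48.6-fold lower without butyrate and at least 55.6-fold lower with it. The nearest tested genes on either side were ANLN at -0.41 and -0.81 and STARD3NL at -1.18 and -1.12. Beyond STARD3NL, TRG-AS1 had a mean of 39.2 CPM in untreated WT and 0.197 in untreated KO, the scarce AMPH 0.728 and 0, and VPS41 46.8 and 40.1, so a further gene close by was also nearly undetected in KO. With ELMO1 at its bound, the medians of the members and of the cytoskeletal genes were the same to 2 decimals.

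LIMK1, a kinase that inactivates the actin-severing protein cofilin, was at 42.9, 34.1 and 47 CPM in untreated WT and 8.13, 10.7 and 14.8 in untreated KO. With butyrate it was at 18.9, 43.6 and 44 in WT and 5.14, 17.6 and 16.4 in KO. The groups did not overlap in either comparison, although replicate 1 of treated WT came close to the KO range. The differences were -1.88 ± 0.45 (SE) and -1.44 ± 0.44.

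ARPC1A and ARPC1B encode alternative forms of one subunit of the Arp2/3 complex, which nucleates branched actin, and their genes are neighbours. ARPC1B was at 298, 252 and 216 CPM in untreated WT and 68.1, 81.4 and 87.5 in untreated KO, and at 206, 249 and 183 in treated WT and 78.3, 127 and 90.6 in treated KO. ARPC1A was at 107, 112 and 89.2 in untreated WT and 80.4, 62.8 and 53.4 in untreated KO, and at 109, 92.2 and 95.5 in treated WT and 61.8, 67.8 and 66.2 in treated KO. KO lay below WT without overlap for both genes and both treatments. ARPC1B differed by -1.69 ± 0.22 and -1.11 ± 0.22 and ARPC1A by -0.65 ± 0.18 and -0.60 ± 0.18. ARPC1B overlaps PDAP1 on the opposite strand, and the use of strand in counting is not given in the sources used here, so its value and that of BUD31, which overlaps the same gene, are uncertain.

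ACTB, the cytoplasmic beta-actin gene, was at 3080, 1590 and 1910 CPM in untreated WT, 1730, 1360 and 1120 in untreated KO, 3660, 2280 and 1460 in treated WT and 2270, 2340 and 1450 in treated KO. The groups overlapped in both comparisons, and the differences were -0.65 ± 0.35 and -0.29 ± 0.35. Without replicate 1 of treated WT the second turned to 0.10. ACTB has 14 RefSeq pseudogenes of its name, none on chromosome 7, which could share its reads. Across the list, 18 members have RefSeq pseudogenes of their name, among them CHCHD2 with 11, CBX3 with 10 and RAC1 with 9. A gene with counts overlaps 17 members on the opposite strand. These limits also hold for members where they are not named. RAC1, the small GTPase that drives lamellipodia, was at -0.51 and -0.55, and ZYX, which encodes the focal adhesion protein zyxin, at -1.36 and -0.85.

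The 3 genes of the nuclear envelope and mitosis had medians of -1.21 and -1.19, the latter the lowest of the role groups with butyrate, and were called lower in both comparisons. SUN1, an inner nuclear membrane protein that links the nucleus to the cytoskeleton, is the member nearest the short-arm end. It was at 123, 147 and 150 CPM in untreated WT and 48.4, 59.3 and 63.5 in untreated KO, and at 86.9, 152 and 175 in treated WT and 27.7, 55.4 and 66.9 in treated KO. NCAPG2, a condensin II subunit that acts in chromosome compaction, is the member nearest the long-arm end. It was at 176, 241 and 218 in untreated WT and 91.2, 107 and 75.6 in untreated KO, and at 117, 190 and 243 in treated WT and 60.6, 105 and 76.2 in treated KO. Neither gene's groups overlapped. SUN1 differed by -1.30 ± 0.32 and -1.46 ± 0.32 and NCAPG2 by -1.21 ± 0.28 and -1.19 ± 0.28, so both outermost members were lower than the members' median. MAD1L1, a spindle checkpoint protein, was at -1.21 and -0.90.

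The members next to the centromere did not match each other. CHCHD2, a mitochondrial protein with a role in respiration, was at 732, 639 and 482 CPM in untreated WT and 504, 383 and 399 in untreated KO, and at 886, 584 and 496 in treated WT and 465, 365 and 391 in treated KO. Its groups overlapped without butyrate, at -0.53 ± 0.25, and did not with it, at -0.69 ± 0.25. BAZ1B, a subunit of the WICH chromatin remodeller on the long-arm side, was at 293, 256 and 257 in untreated WT and 151, 145 and 96.8 in untreated KO, and at 364, 204 and 209 in treated WT and 143, 136 and 91.8 in treated KO. Its groups did not overlap in either comparison, at -1.04 ± 0.27 and -1.07 ± 0.27.

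SUMF2, related to the enzyme that activates sulfatases, was the highest member in both comparisons and lies near CHCHD2. It was at 73.0, 108 and 76.9 CPM in untreated WT and 84.7, 104 and 138 in untreated KO, and at 61.1, 51.9 and 62.9 in treated WT and 87.8, 86.7 and 107 in treated KO. The untreated groups overlapped, at 0.34 ± 0.22, and all 3 treated KO libraries lay above treated WT, at 0.68 ± 0.22. Of the other metabolic genes, OGDH, a subunit of the oxoglutarate dehydrogenase of the citric acid cycle, was at -0.86 and -0.61, and PNPLA8, a phospholipase, at -0.42 and -0.65. OGDH was called lower in both comparisons, and the replicate block added CHCHD2 in both.

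**Figure D4:**
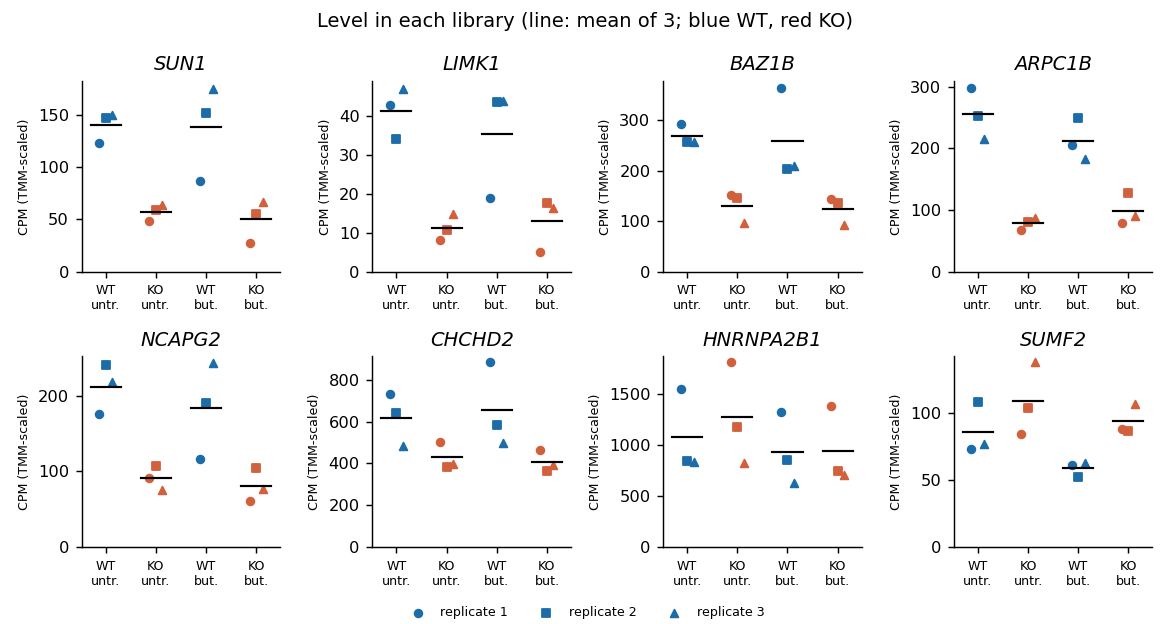
CPM in each of the 12 libraries for 8 members; symbols give the replicate number, lines the mean of 3 libraries, blue WT and red KO. SUN1, LIMK1, BAZ1B, ARPC1B and NCAPG2 show KO below WT without overlap under both treatments, while HNRNPA2B1 overlaps and SUMF2 is higher in treated KO.

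RNA processing genes had a median of -0.43 without butyrate and -0.68 with it, with 1 and 2 of 7 called lower. With the replicate block 3 and 4 were called, LSM5 and DDX56 being added in both. HNRNPA2B1, which binds pre-mRNA and packages it, was at 1550, 846 and 836 CPM in untreated WT, 1810, 1180 and 828 in untreated KO, 1320, 850 and 625 in treated WT and 1380, 744 and 702 in treated KO. Replicate 1 was the highest library in each group, and the groups overlapped, at 0.24 ± 0.39 and 0.02 ± 0.39. The sign without butyrate turned to -0.10 without replicate 1 of untreated KO, and the near-zero value with butyrate turned to -0.04 when scaling used genes outside chromosome 7. Its divergent neighbour CBX3, a heterochromatin protein of the HP1 family, was at 343, 312 and 284 in untreated WT and 343, 247 and 214 in untreated KO. With butyrate CBX3 was at 370, 288 and 224 in WT and 282, 196 and 167 in KO, and its differences of -0.22 ± 0.26 and -0.45 ± 0.26 also came with overlapping groups. In the GENCODE annotation, whose gene spans are longer than the RefSeq ones used above, these neighbours overlap on opposite strands, so reads of one could be counted to the other.

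TRA2A, a splicing regulator, was at 0.09 and -0.39, and the first value turned to -0.07 without replicate 1 of untreated KO. LSM5, part of the ring that binds U6 RNA, was at -0.67 and -0.68, and DDX56, a nucleolar RNA helicase, at -0.76 in both comparisons, although leaving out 1 library moved the value with butyrate between -1.05 and -0.18. BUD31, a spliceosome protein, was at -1.09 and -1.22, SRPK2, a kinase of splicing factors, at -0.39 and -0.62, and LUC7L2, a U1-associated splicing factor, at -0.43 and -0.73.

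DNA repair genes were all below 0, with 2 of 5 called lower in each comparison and 4 of 5 with the replicate block, which added XRCC2 in both, PAXIP1 without butyrate and HUS1 with it. PMS2, a mismatch repair endonuclease, was at -0.76 and -0.93. It has 15 RefSeq pseudogenes of its name, all on chromosome 7, so its value is uncertain. NUDT1, which clears oxidised nucleotides, was at -1.08 and -0.92, HUS1, of the 9-1-1 checkpoint clamp, at -0.36 and -0.88, XRCC2, a homologous recombination protein, at -0.57 and -0.91, and PAXIP1, a BRCT-domain protein, at -0.73 and -0.52.

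The chromatin and transcription group had medians of -0.67 and -0.82, with 3 and 5 of 10 called lower. With the replicate block 7 and 8 were called: IKZF1 and TRRAP were added in both, PURB and GTF2I without butyrate and CBX3 with it. IKZF1, the lymphoid transcription factor Ikaros, was at 93.9, 54.7 and 72.2 CPM in untreated WT and 28.8, 37.6 and 26.6 in untreated KO, and at 118, 42.2 and 35.3 in treated WT and 39, 30.8 and 16.7 in treated KO. The treated groups overlapped, with replicate 1 of treated WT far above the other treated libraries, and the differences were -1.25 ± 0.43 and -1.18 ± 0.43. Without that library the second was -0.44. NRF1, the nuclear respiratory factor 1, was at 17.1, 21.3 and 20.7 in untreated WT, 22.3, 23.9 and 21.6 in untreated KO, 31.5, 16.7 and 19.8 in treated WT and 20.9, 15.8 and 18.7 in treated KO. It was higher in KO without overlap when untreated, at 0.20 ± 0.25, and overlapped with butyrate, at -0.30 ± 0.25. TAF6, a subunit of the general factor TFIID, was at -1.35 and -1.43, TRRAP, a scaffold of histone acetyltransferase complexes, at -0.96 and -0.97, and CUX1, a homeodomain factor, at -0.76 and -0.83. GTF2I, a transcription factor with 20 RefSeq pseudogenes of its name, was at -0.59 and -0.78, PURB, a nucleic acid-binding protein, at -0.46 and -0.80, and HIPK2, a nuclear kinase, at -0.22 and 0.05. The second value of HIPK2 turned to -0.01 when scaling used genes outside chromosome 7.

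Signalling genes were all below 0, with 4 and 3 of 6 called lower, or 4 and 5 with the replicate block, which added STK17A and BRAF with butyrate. CDK6, the cyclin D-dependent kinase, was at 167, 150 and 157 CPM in untreated WT, 115, 137 and 102 in untreated KO, 126, 61.7 and 66.6 in treated WT and 77.7, 73.4 and 50.2 in treated KO. KO lay below WT without overlap when untreated, at -0.42 ± 0.27, and overlapped it with butyrate, at -0.33 ± 0.27. BRAF, a kinase of the MAPK pathway, was at 69.8, 67.1 and 60.4 in untreated WT, 48.3, 60.2 and 46.3 in untreated KO, 60.3, 43 and 46.8 in treated WT and 40.4, 31.5 and 33.2 in treated KO. Its KO libraries lay just below WT in both comparisons, at -0.35 ± 0.19 and -0.52 ± 0.19. RHEB, the GTPase that activates mTORC1, was at -0.76 and -0.80, STK17A, a kinase, at -1.04 and -0.87, KRIT1, an endothelial junction protein, at -0.85 and -0.96, and AKAP9, a centrosomal anchor of protein kinase A, at -0.78 and -1.20.

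In translation, EIF3B, a core subunit of initiation factor eIF3, was at -0.54 and -0.52, EIF4H, a cofactor of the helicase eIF4A, at -0.82 and -0.80, and ABCF2, an ATP-binding cassette protein, at -1.14 and -1.28, the latter -0.69 without replicate 1 of treated WT. EIF4H was called lower in both comparisons, and the replicate block added ABCF2 in both. In the ubiquitin system, COPS6, a subunit of the COP9 signalosome, was at -1.18 and -1.16, CUL1, the scaffold of SCF ubiquitin ligases, at -0.66 and -0.51, UBE2H, a ubiquitin-conjugating enzyme, at -0.11 and -0.51, and MKLN1, of the CTLH ligase, at -0.52 and -0.66. Among trafficking genes, AVL9 was at -1.14 and -1.20, SNX13, a sorting nexin, at -0.44 and -0.56, CALU, a calcium-binding protein of the secretory pathway, at -0.71 and -0.87, and TNPO3, a nuclear import receptor, at -0.73 and -0.70. The direction of 47 of the 49 members below 0 without butyrate held in every fit tried, UBE2H and HIPK2 being the exceptions. With butyrate it held for 44 of 50, and ACTB, TRA2A, CDK6, NRF1, LUC7L2 and CUL1 turned when replicate 1 of treated WT was left out.

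Partners of the members in 15 complexes, encoded on other chromosomes, did not share the shift. For 88 tested partners the median was 0.14 without butyrate and 0.09 with it, the latter -0.01 without replicate 1 of treated KO. Of them 4 were called lower and 9 higher without butyrate, and 6 lower and 7 higher with it, beside the backgrounds given above for all tested genes. The 16 members with listed complexes had medians of -0.81 and -0.92, and the other 37 of -0.65 and -0.76. The members were chosen on this difference and the partners for their complexes, although with earlier results of these data known. The order of members and partners was therefore largely set by the choice of members, and nothing is read from it. A member lay below the median of its partners in 14 of 15 complexes without butyrate and in 15 with it, and below every partner in 13 and 14. The exception to the median was LINC without butyrate, where SUN1 at -1.30 was set against SUN2 and the scarcely expressed SYNE2 at -3.21 ± 1.28 (SYNE1 was not tested). In eIF3, EIF3B at -0.54 and -0.52 was not below every partner in either comparison. The scarcely expressed EIF3C was at -1.65 ± 1.41 without butyrate. With butyrate EIF3F was at -0.63 ± 0.2 and EIF3A at -0.56 ± 0.22. Partners on chromosome 7 itself, LSM8, ING3, DLD and KMT2C, had a median of -0.49 and -0.79.

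In condensin II, NCAPG2 was at -1.21 and -1.19. Its 4 partners were between 0.08 and 0.52 without butyrate and between 0.02 and 0.43 with it. COPS6 was set against 9 partners with medians of 0.29 and 0.19. Among these COPS7B was higher in KO by 0.92 ± 0.18 (edgeR adjusted p = 0.00279) and 0.95 ± 0.18 (0.00273). TFIID was less clear-cut, since TAF8 at -0.97 ± 0.18 (edgeR adjusted p = 0.00172), TAF10 at -0.68 ± 0.21 (0.0307) and TBP at -0.58 ± 0.17 (0.0254) were lower as well, and TAF11 at 0.79 ± 0.18 (0.00787) was higher. TAF10 is named here outside the naming rule, after its values were seen, to complete the 4 partners called lower. With butyrate, TAF8 was at -1.06, TBP at -1.03, TAF10 at -0.87 and TAF11 at 0.79, each called. LSM2, in the ring with LSM5, was at -0.55 ± 0.16 without butyrate (edgeR adjusted p = 0.0268). DLST, the partner of OGDH on chromosome 14, was higher by 1.10 ± 0.16 (edgeR adjusted p = 0.000423) and 0.68 ± 0.16 (0.0109).

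**Figure D5:**
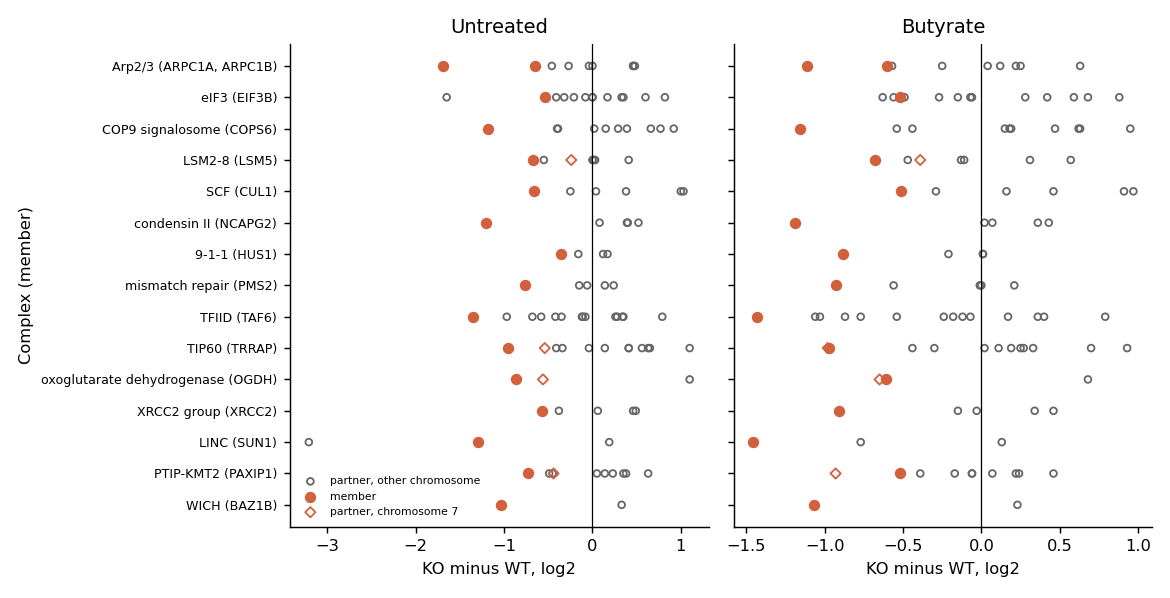
KO-minus-WT log2 difference of members (filled red circles), of their complex partners on other chromosomes (open grey circles) and of partners on chromosome 7 (open red diamonds), without butyrate (left) and with it (right). In 13 of 15 complexes without butyrate and 14 with it, the member, or the median of both members for Arp2/3, lies left of every partner on another chromosome.

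In the edgeR fit without the replicate block, no member passed the test for butyrate in either genotype. With the block, 4 members passed in WT and 3 in KO, as given below. This contrast was not used to choose the members. The median butyrate-minus-untreated difference was -0.16 in WT and -0.19 in KO, against 0.06 and 0.00 for the chromosome 7 genes off the list. It was not particular to the members, since the 88 complex partners on other chromosomes had medians of -0.17 and -0.24. In either genotype 0 of 53 members were called by edgeR without the block, where 2.35% and 3.4% of all tested genes were. At an unadjusted p under 0.05 there were 5 and 7 members, against 18% and 19.8% of all tested genes. The smallest edgeR adjusted p-values were 0.103 for CDK6 in WT, at -0.90 ± 0.27, and 0.111 for MKLN1 in KO, at -0.48 ± 0.15. CDK6 was lower with butyrate without overlap in both genotypes, with a difference of -0.81 ± 0.27 in KO, and two-sided exact permutation tests gave 0.1, the smallest p that 3 libraries against 3 allow. Levels did not overlap for 8 members that were lower and 2 higher in WT, against 10.4% and 11.3% of all tested genes, and for 10 lower and 1 higher in KO, against 11.8% and 12.6%.

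With the replicate number as a block, 4 members were called in WT, against 8.61% of all tested genes, and 3 in KO, against 11.7%. CDK6 fell in both genotypes, by 0.95 on the log2 scale in WT (SE 0.22, blocked edgeR adjusted p = 0.0224) and by 0.84 in KO (SE 0.22, 0.0309). In WT, UBE2H rose by 0.90 ± 0.25 (blocked edgeR adjusted p = 0.0424), from 33.9, 101 and 103 CPM to 84.4, 139 and 210 in replicates 1, 2 and 3, so each pair rose although the groups overlapped. PURB rose by 0.56 ± 0.15 (0.0424), from 64.5, 73.7 and 103 CPM to 103, 120 and 129. CUL1 fell by 1.01 in WT (SE 0.28, blocked edgeR adjusted p = 0.0436), from 190, 146 and 147 CPM to 170, 61.1 and 46.7, with replicate 1 of treated WT left within the untreated range. In KO, STK17A rose by 0.73 ± 0.22 (blocked edgeR adjusted p = 0.0498), from 12.4, 9.42 and 7.46 CPM to 18.5, 20.3 and 10.2, and LSM5 fell by 0.56 (SE 0.17, 0.0478), from 64.5, 49.5 and 54.2 CPM to 49.3, 27.1 and 39.5. STK17A overlaps COA1 on the opposite strand, so its value is uncertain. DESeq2 called CDK6 in WT, against 8.42% of all tested genes, and MKLN1 in KO, against 9.73%.

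Whether the genotype difference depended on butyrate was asked with the interaction, which subtracts the butyrate difference of WT cells from that of KO cells. No member was called by edgeR, with or without the block, or by DESeq2, and edgeR without the block called 0% of all tested genes. At an unadjusted p under 0.05 there were 0 members, against 4.16% of all tested genes. Interaction values of the members ranged from -0.52 to 0.59, with a median of -0.04 and quartiles of -0.17 and 0.07. These values do not show that the difference was the same under both treatments.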

How the data were processed

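The authors deposited RNA-seq counts of the 12 K562 libraries in 1 table with a line per gene symbol. The values are whole and their sums differ between libraries, from which the unit was read. FastQC 0.12.1, STAR 2.7.11b and hg38 are named per the submitters' processing notes, while the counting tool, annotation, use of strand and filters are not given in the sources used here. Some results for single genes are left out. Members and gene lists were chosen with earlier results of these data known. Groups and replicate numbers came from the sample titles, with 0 unused columns and 0 lines lacking a gene name.

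The counts entered edgeR 4.0.16 under R 4.3.3 unchanged: filterByExpr with a minimum count of 10 (15805 genes kept), TMM scaling, a mean per group over all 12 libraries, the quasi-likelihood F-test and Benjamini-Hochberg adjustment over all tested genes at 0.05. The procedure was tested on simulated data. CPM are TMM-scaled, except marker sums, which use the library total, per-library log2 values used a prior count of 2, values after ± are SE of the log2 difference, and percent of WT is 2 to the power of that difference. The floor was 3 counts, or 0.0953 to 0.162 CPM, and covers counting error only. Chi-square values per degree of freedom for replicates of the same group were 40 or more, so none were treated as duplicates.

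Positions, promoter windows and pseudogene names came from the RefSeq GRCh38.p14 tables, in which 15165 tested genes matched a single chromosome from 1 to 22, X or Y. Strands of overlapping genes came from GENCODE. Deviations of same-numbered libraries from their group means correlated over genes at 0.210 to 0.361 (genotype, untreated), 0.315 to 0.595 (genotype, treated), 0.195 to 0.409 (butyrate, WT) and 0.147 to 0.468 (butyrate, KO). Libraries with different numbers correlated at -0.288 to 0.0692, -0.512 to 0.3425, -0.439 to 0.1865 and -0.441 to 0.1234, in the same order. These ranges overlapped for genotype in treated cells, where pairing was less clear. All same-numbered values were over 0.1, so the numbers were taken as pairs. Blocked counts are given with the members they add, and blocked values for the butyrate contrasts. Every member was named, with values per library for the outermost members, those next to the centromere, the 3 lowest and 3 highest by the mean of both differences, ACTB, CDK6, IKZF1, BRAF and the neighbouring pairs. Alternatives were other scalings, other filters, DESeq2 1.42.0, the replicate block, the 6 libraries of a contrast alone and leaving libraries out.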

Additional observations from a re-analysis of the deposited data

Results flagged for a closer look

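ARPC1B was flagged because its butyrate-minus-untreated difference had opposite signs in the genotypes in every replicate pair. Some of the values lie near 0, and the share of all tested genes with such a sign pattern is not given here. The butyrate-minus-untreated log2 difference in pairs 1, 2 and 3 was -0.53, -0.02 and -0.24 in WT and 0.20, 0.64 and 0.05 in KO. The interaction was 0.59 ± 0.31 (SE), with an edgeR adjusted p of 1.0, so the difference did not pass the test.

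NRF1 was flagged because its KO-minus-WT difference had opposite signs under the treatments in every pair. Here too some values lie near 0 and no share of all tested genes is given. It was 0.38, 0.16 and 0.06 without butyrate and -0.59, -0.09 and -0.08 with it. The interaction was -0.49 ± 0.36, with an edgeR adjusted p of 1.0, and did not pass the test either.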

How the results depend on the processing

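Signs turned under some alternatives for members with values near 0 or resting on replicate 1 of treated WT, named in the report, and for the partners' median with butyrate (-0.01 to 0.17 when 1 library was left out, 0.06 to 0.21 without butyrate). With only the 6 treated libraries, 12 members were called lower in KO than in WT. Leaving out 1 library gave 15 to 31 members called lower in KO without butyrate and 14 to 26 with it. The members' KO-minus-WT medians were then -0.76 to -0.63 and -0.89 to -0.63. For butyrate against untreated, leaving out 1 library gave 0 to 2 members called lower in WT and 0 to 1 in KO. In that contrast, members called lower in WT numbered 1 with DESeq2, 2 with the replicate block and 2 without the libraries numbered 1. With the block, 2 were higher. In KO, 1 was lower with DESeq2, 2 with the block and 5 without the libraries numbered 1, and 1 was higher with the block. The block moved no median of the members by more than its spread.

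TMM from genes outside chromosome 7 gave medians without butyrate of -0.65 for the short arm, -0.95 for the long arm and -0.84 for the chromosome, and -0.74, -1.0 and -0.91 with it. Library size alone gave -0.59, -0.85 and -0.77 with butyrate, and it raised the median of all tested genes by 0.09 there, and by 0.12 for butyrate against untreated in KO. Without the libraries numbered 1 the chromosome was at -0.84 untreated and the short arm at -0.64 treated. Leaving out 1 library gave -0.65 to -0.54 and -0.72 to -0.65 for the short arm, -0.94 to -0.84 and -0.97 to -0.88 for the long arm, and -0.81 to -0.76 and -0.90 to -0.78 for the chromosome. Partners called higher without butyrate numbered 14 with the block. With butyrate, 11 were lower and 13 higher with the block, and 3 lower and 13 higher with library size alone. Leaving out 1 library gave 4 to 9 partners higher and 1 to 4 lower without butyrate, and 3 to 8 and 2 to 6 with it. The causes were not tested. Scarce genes such as ELMO1 and SYNE2 are limited by depth.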
